A study of Homo sapiens with 4 samples.

Results

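The 10 genes described here encode the eIF4 cap-binding and helicase factors of translation initiation and their partners: EIF4E, EIF4A1, EIF4A2, EIF4G1, EIF4G2, EIF4G3, EIF4B, EIF4H, EIF4EBP1 and EIF4EBP2. They were listed by gene symbol and not by a measured value, although earlier results of these data were known. All 10 were found among the 15902 genes of the deposited intron tables. Together they had 91 of the 142206 introns used, from 5 of the 34 introns of EIF4G3 to all 10 of EIF4A2. RNA of the cytoplasm of SUM159, a human line established from a triple-negative breast cancer, was sequenced after polyA selection. The cells received H3B-8800, a small molecule that inhibits the spliceosome, or the vehicle DMSO, for 12 hours. Each group had 2 libraries, stated to be biological duplicates of this 1 line. For every intron the tables gave reads that lie inside it (intronic reads) and allowed the reads that span it (spliced reads) to be computed.

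Initiation on most messenger RNAs begins when eIF4E binds the 5′ cap. The scaffold eIF4G joins eIF4E to the RNA helicase eIF4A, which unwinds the 5′ leader so that the small ribosomal subunit can land and scan. The related RNA-binding proteins eIF4B and eIF4H stimulate the helicase, and the 4E-BP proteins hold eIF4E away from eIF4G until the kinase mTOR phosphorylates them. An intron that stays in a cytoplasmic messenger RNA usually brings a stop codon into the reading frame.

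The introns whose sequences are given here are 3 whose ratio of intronic to spliced reads rose under H3B-8800 and, for contrast, 3 introns of the same genes that did not pass that test or had too few reads for it. Of the contrast introns, intron 9 of EIF4A2 did rise in intronic reads. The first is intron 8 of EIF4A1 (GRCh38, chr17:7577707-7577826, plus strand, 120 bases, between coding exons), shown whole because it carried most of the intronic reads of its gene. Capitals mark its first and last 2 bases, GT and AG, the splice sites. It lies between codons, after 906 coding bases. Read in that frame, its 120 bases hold no stop codon and leave the frame after it unchanged, unlike the usual retained intron. Whether RNA that keeps it is translated was not tested.
EIF4A1 intron 8: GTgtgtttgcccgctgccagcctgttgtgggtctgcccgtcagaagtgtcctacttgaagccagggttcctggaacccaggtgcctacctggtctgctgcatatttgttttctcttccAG

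Next come the last 60 bases of each intron followed by 10 bases of the next exon, the stretch in which the spliceosome reads the branch site, the pyrimidine tract and the 3′ splice site. Capitals mark the last 2 intron bases. They were read from GENCODE release 29 transcripts of GRCh38, at chr17:7577767-7577836 and chr17:7577284-7577353 for EIF4A1, chr3:186787435-186787504 and chr3:186787743-186787812 for EIF4A2, and chr11:10799747-10799816 and chr11:10799415-10799484 on the minus strand for EIF4G2.
EIF4A1 intron 8 (ratio rose): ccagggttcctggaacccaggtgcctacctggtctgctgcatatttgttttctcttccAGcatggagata
EIF4A1 intron 6 (contrast): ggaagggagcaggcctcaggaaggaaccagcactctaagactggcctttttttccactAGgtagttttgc
EIF4A2 intron 8 (ratio rose): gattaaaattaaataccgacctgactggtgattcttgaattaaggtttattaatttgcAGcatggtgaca
EIF4A2 intron 9 (contrast): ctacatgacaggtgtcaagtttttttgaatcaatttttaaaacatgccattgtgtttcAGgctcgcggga
EIF4G2 intron 17 (ratio rose): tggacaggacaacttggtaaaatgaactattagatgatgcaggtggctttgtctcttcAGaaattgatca
EIF4G2 intron 18 (contrast): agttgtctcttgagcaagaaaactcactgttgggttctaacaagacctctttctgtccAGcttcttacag

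All 6 ended in AG. The 20 bases before the last 3 of the intron held 80% pyrimidines in EIF4A1 intron 8, 50% in EIF4A2 intron 8 and 65% in EIF4G2 intron 17, against 70%, 55% and 65% in the contrast introns of the same genes. The letters CTNAC, the core of many branch sites, were searched in the last 60 bases, on the strand printed above, which reads as the RNA does. They were in EIF4A2 intron 8 and EIF4G2 intron 18 and not in the other 4, so 1 intron of each kind held them. Intron 4 of EIF4A2, whose ratio also rose, had 45% pyrimidines and no match. Over the 6087 listed introns with a sequence at hand, 32.0% held a match and the median was 75% pyrimidines.

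Library totals, recovered from the tables, were 58000000 and 62000000 reads for the treated cells and 64000000 for each DMSO library. Markers of a mesenchymal-type line were present, with VIM at 5037 ± 160 CPM (SD, n = 2; spliced reads scaled to equal library size with TMM factors) under H3B-8800 and 6027 ± 67.7 CPM (SD, n = 2) under DMSO, and CD44, FN1, AXL, CAV1 and SPARC detected in every library. The luminal marker ESR1 had no spliced read, and CDH1 and ERBB3 had at most 2 in any library, EPCAM had at most 15 and GATA3 at most 49. The epithelial keratins KRT8 and KRT18 went the other way, at mean CPM of 165 and 325 under H3B-8800 and 197 and 396 under DMSO. In both groups the mean of KRT18 was above that of every mesenchymal marker named here except VIM. CD44 was measured through 1 intron, at 21.9 CPM under H3B-8800 and 10.4 CPM under DMSO. Over all genes, intronic reads were 8.19% and 8.24% of the intronic and spliced reads under H3B-8800 and 4.23% and 4.24% under DMSO. Over the 10 eIF4 factor genes the shares were 2.46% and 2.55% against 1.19% and 1.19%. CPM values are relative to the spliced reads of each library, not to its total. Over all genes these numbered 11605061 and 12536423 under H3B-8800 and 14240258 and 14194422 under DMSO. A change in all spliced RNA together therefore does not show in CPM, and less RNA per cell and fewer cells cannot be told apart.

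Spliced reads of the eIF4 factor genes were mostly higher under H3B-8800. By edgeR's quasi-likelihood test with Benjamini-Hochberg adjustment over 9468 genes, 7 of the 10 rose, EIF4G1 fell, and EIF4G3 and EIF4EBP1 were not called at a threshold of 0.05. Of all genes tested, 32.8% rose and 32.7% fell, and the median log2 change was 0.01 over all genes and 0.30 over the 10. With library totals in place of TMM, the median of all genes moved to -0.16, the split over all genes became 2230 higher and 3927 lower in place of 3102 and 3097, and 6 of the 10 genes rose and 1 fell. EIF4H then lost its call, at a log2 change of 0.060 (adjusted p = 0.295, edgeR). The other called genes kept theirs at shifted sizes: 0.14 for EIF4A1, 0.24 for EIF4A2, 0.10 for EIF4G2, 0.34 for EIF4E, 0.60 for EIF4EBP2, 0.79 for EIF4B and -0.38 for EIF4G1.

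**Figure D1:**
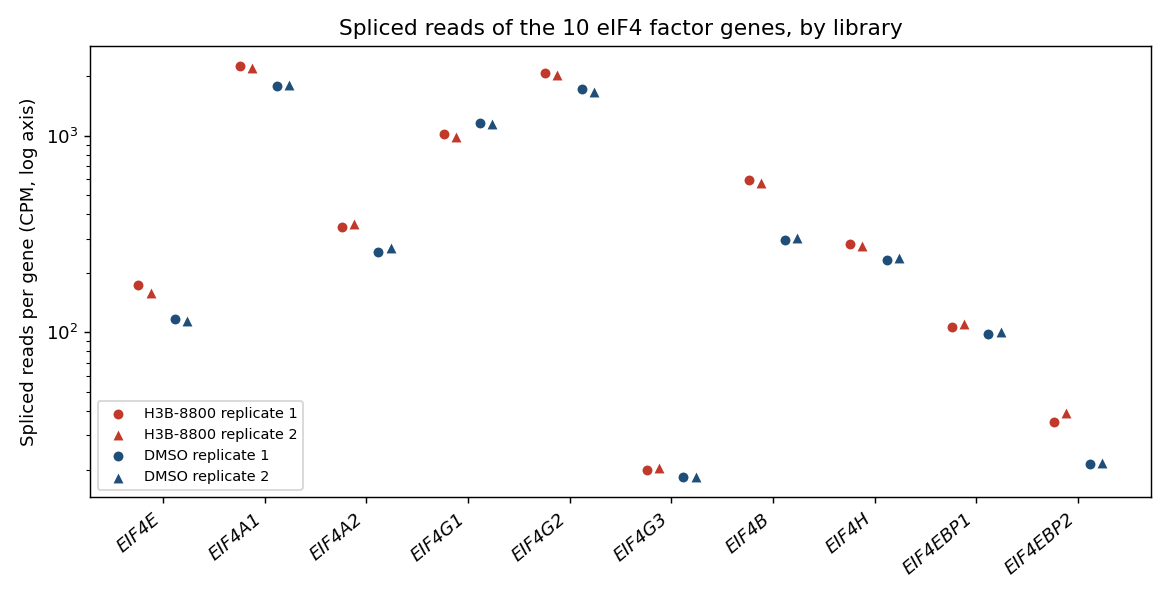
Spliced reads per gene in CPM on a log axis, 1 point per library, H3B-8800 in red and DMSO in blue. EIF4B shows the widest gap, at 593 and 575 CPM against 296 and 303 CPM, and EIF4G1 is the gene whose H3B-8800 points lie below DMSO.

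EIF4E, the cap-binding protein itself, had 174 and 159 CPM of spliced reads under H3B-8800 and 118 and 114 CPM under DMSO. Both treated libraries were above both controls. The log2 change was 0.52 (SE 0.06, 1.43-fold, adjusted p = 9.58e-06, edgeR), and all 4 of its listed introns rose, by 0.46 to 0.59 on the log2 scale.

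The helicase genes EIF4A1 and EIF4A2 encode close relatives that share the same place in the complex. EIF4A1 had 2246 and 2217 CPM under H3B-8800 against 1777 and 1799 CPM under DMSO. The groups did not overlap, and the log2 change was 0.32 (SE 0.03, adjusted p = 1.10e-06, edgeR). EIF4A2 had 342 and 354 CPM against 255 and 268 CPM, again without overlap, with a log2 change of 0.41 (SE 0.05, adjusted p = 6.92e-06, edgeR).

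The scaffolds divided. EIF4G1, the main scaffold that binds both eIF4E and eIF4A, had 1020 and 989 CPM under H3B-8800 and 1154 and 1150 CPM under DMSO. It was the 1 member with lower spliced reads, at a log2 change of -0.20 (SE 0.04, adjusted p = 2.91e-04, edgeR). All 24 of its listed introns had a negative change, from -0.44 to -0.06, and 7 of them passed the test. DESeq2 called 3 of all 91 introns lower, and 9009 of the 66136 introns tested over all genes. Intron 1 of EIF4B and intron 20 of EIF4G1 were among them, so most of these 7 did not keep the call. EIF4G2, a relative that lacks the eIF4E-binding part and serves cap-independent initiation, had 2086 and 2035 CPM against 1729 and 1668 CPM. It rose by 0.28 (SE 0.03, adjusted p = 7.87e-06, edgeR), with 18 of 18 introns positive and 13 called higher. EIF4G3, the third scaffold, was measured through 5 of its 34 introns and had 19.9 and 20.4 CPM against 18.4 and 18.4 CPM. The groups did not overlap, but the change of 0.13 (SE 0.12) did not pass the test (adjusted p = 0.354, edgeR).

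EIF4B, the main helicase stimulator, changed by more than any other of the 10 genes. Its spliced reads were 584 ± 13.4 CPM (SD, n = 2) under H3B-8800 and 300 ± 5.52 CPM (SD, n = 2) under DMSO. The log2 change was 0.96 (SE 0.04, 1.95-fold, adjusted p = 1.98e-09, edgeR). EIF4H, the smaller relative of eIF4B, had 282 and 274 CPM against 234 and 238 CPM, a log2 change of 0.24 (SE 0.05, adjusted p = 8.25e-04, edgeR). Of its 4 listed introns, intron 5 alone passed the test, at 1391 and 1485 spliced reads against 1273 and 1214 (log2 change 0.48), while the other 3 had changes of 0.00 to 0.10. Without that intron, the most read of the gene, EIF4H was not called (0.094, adjusted p = 0.161, edgeR).

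The eIF4E inhibitors were measured through 2 introns each. EIF4EBP1 had 107 and 111 CPM under H3B-8800 and 98.7 and 101 CPM under DMSO, a log2 change of 0.12 that did not pass (adjusted p = 0.106, edgeR). Its intron 1 passed on its own, at a log2 change of 0.24 (adjusted p = 0.0337, edgeR), but not with library totals (0.065, adjusted p = 0.59), with DESeq2 (adjusted p = 0.142) or without any 1 of the 4 libraries (edgeR adjusted p = 0.108 to 0.161). Without its most-read intron, which leaves intron 1, the gene passed (0.26, adjusted p = 0.0175, edgeR). EIF4EBP2 had 35.1 and 38.9 CPM against 21.4 and 21.8 CPM. It rose by 0.78 (SE 0.10, 1.72-fold, adjusted p = 1.56e-05, edgeR), and both of its introns rose, by 0.86 and 0.65.

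Of the 91 introns, 48 rose in spliced reads and 8 fell, where 19.1% of all 66136 introns tested rose and 23.9% fell. With library totals 33 rose and 22 fell, where 8528 of all 66136 introns tested rose and 20733 fell. The 8 that fell were 7 introns of EIF4G1 and intron 1 of EIF4B. Without either one of the H3B-8800 libraries, edgeR called no intron in either direction, over all introns as over the 91. At an unadjusted p under 0.05 it still had 43 of the 91 higher and 5 lower without replicate 1, and 43 higher and 4 lower without replicate 2. A read that crosses several introns counts at each, so introns of a gene are not independent.

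**Figure D2:**
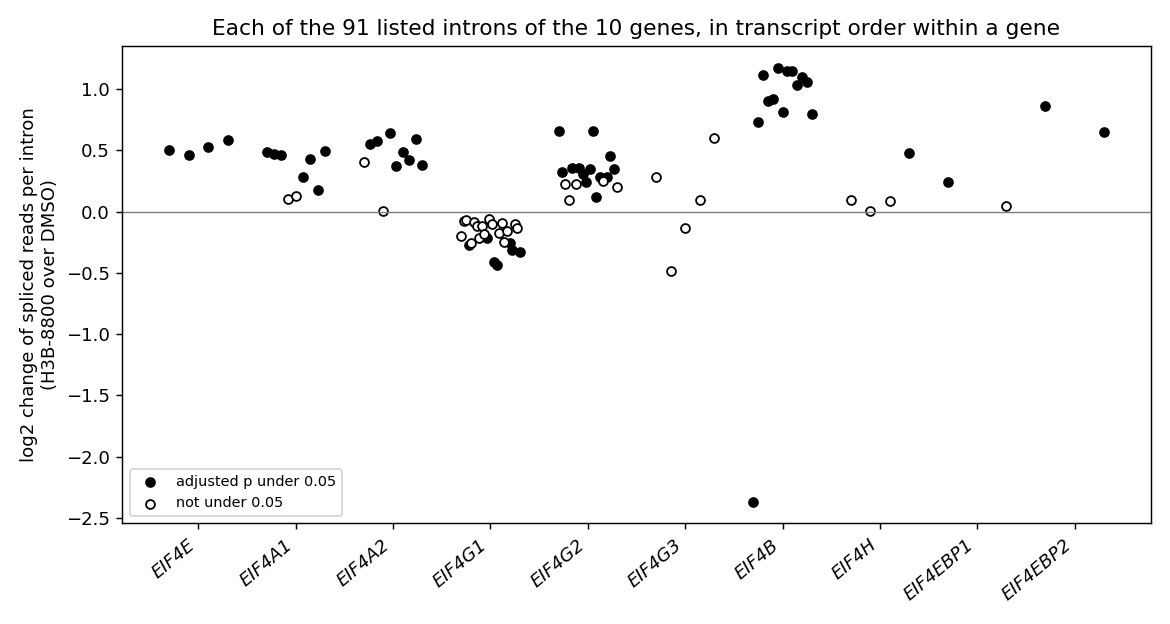
Log2 change of spliced reads (H3B-8800 over DMSO) for each of the 91 listed introns, by gene and in transcript order, filled where the edgeR adjusted p was under 0.05. Introns of EIF4G1 all lie below 0, those of EIF4G2 all above it, and intron 1 of EIF4B stands alone at -2.37.

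Intronic reads moved differently from gene to gene. Scaled to the library totals, 4 of the 9 tested members rose and 0 fell (edgeR), against 58.3% and 4.37% of all 7900 genes tested. At an unadjusted p under 0.05 the counts were the same, 4 and 0, and DESeq2 gave 4 and 0. The log2 changes were 3.02 for EIF4B, 2.55 for EIF4A1, 2.32 for EIF4G2 and 0.51 for EIF4A2, and the median over all genes was 1.04. With TMM factors of the intronic reads, which centre the general rise near 0, 3 of the 9 rose and 4 fell, and EIF4A2 turned to -0.51. Of all 7900 genes, 1589 then rose and 1579 fell. Without H3B-8800 replicate 1 or without replicate 2, edgeR called no gene at all, although 4 members higher and 0 lower remained at an unadjusted p under 0.05.

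The ratio of intronic to spliced reads within a library needs no scaling between libraries. It rose in 3 of the 9 tested members and fell in 0, where 65.4% of all 7566 genes tested rose and 2.35% fell. The median log2 change was 0.10 over the members and 1.35 over all genes. At an unadjusted p under 0.05, edgeR had 3 higher and 1 lower, and DESeq2 called 3 and 0.

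EIF4B had 9.98 and 9.89 intronic reads per 100 spliced reads under H3B-8800 and 2.28 and 1.95 under DMSO, a log2 change of the ratio of 2.23 (SE 0.20, adjusted p = 1.44e-07, edgeR). In EIF4A1 the values were 1.60 and 1.56 against 0.329 and 0.267, and the change was 2.41 (SE 0.18, adjusted p = 2.48e-08, edgeR). EIF4G2 had 0.407 and 0.265 against 0.0885 and 0.0542, a change of 2.21 (SE 0.30, adjusted p = 1.16e-05, edgeR). In these 3 genes both treated libraries were above both controls, and the call stood without any single library.

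The other 6 tested members did not pass, with log2 changes of the ratio from -0.81 for EIF4EBP2 to 0.27 for EIF4A2. EIF4EBP2 had 5.99 and 5.38 intronic reads per 100 spliced against 12.1 and 7.99 (adjusted p = 0.062, edgeR), and without DMSO replicate 2 it passed as lower (adjusted p = 0.0333). EIF4G3 had 19.7 and 17.4 against 29.1 and 24.2 (adjusted p = 0.162, edgeR). For both, the treated libraries were below the controls in value, in EIF4A2 they were above, and in EIF4E, EIF4G1 and EIF4EBP1 the groups overlapped. EIF4H had 4, 9, 6 and 0 intronic reads in H3B-8800 replicates 1 and 2 and DMSO replicates 1 and 2, which were too few to test.

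**Figure D3:**
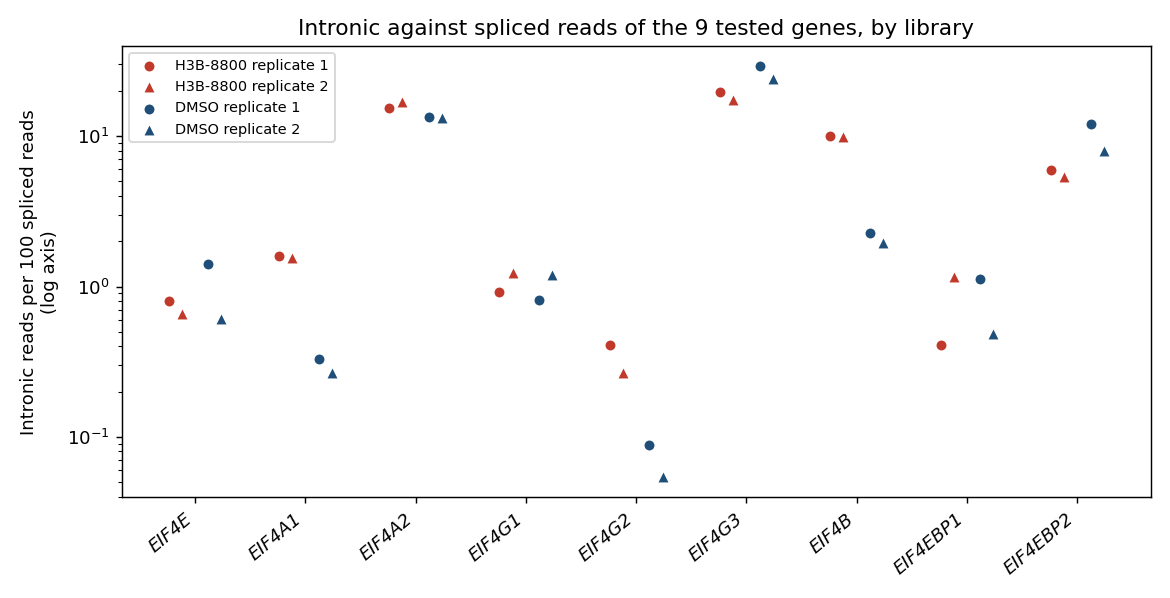
Intronic reads per 100 spliced reads for the 9 tested genes on a log axis, 1 point per library. EIF4A1, EIF4G2 and EIF4B have both H3B-8800 points far above DMSO, while the points of EIF4E, EIF4G1 and EIF4EBP1 interleave.

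Within the genes the intronic reads sat in few introns. Of the 91 introns, 22 had no intronic read in any library and 64 had under 10 in every library. The ratio could be tested in 20, of which 7 rose and 0 fell, where 56.5% of all 9937 introns tested rose and 2.88% fell. At an unadjusted p under 0.05, edgeR had 8 higher and 2 lower, and DESeq2 called 6 and 0. In intronic reads scaled to library totals, 8 of the 20 rose and 1 fell, where 48.2% of all 12013 introns tested rose and 5.74% fell. With TMM factors of the intronic reads the 8 and 1 became 5 and 5, where 2563 of all 12013 introns tested rose and 2327 fell. Without H3B-8800 replicate 1 or without replicate 2, edgeR called no intron in this test, and 6 of the 20 higher and 0 lower were left at an unadjusted p under 0.05. The ratio test called 6 and 7 higher without those libraries, and 9 and 7 without DMSO replicates 1 and 2.

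Intron 8 of EIF4A1, whose sequence is given above, held 344 and 366 intronic reads under H3B-8800 and 22 and 12 under DMSO. Per 100 spliced reads this was 10.9 and 10.3 against 0.614 and 0.336, so the groups were far apart. The log2 change of the ratio was 4.47 (SE 0.30, 22.2-fold, adjusted p = 7.62e-07, edgeR). This intron made up 84.5% of the intronic reads of the gene under H3B-8800 and 22.2% under DMSO. The other 8 listed introns together had 68 and 62 reads against 62 and 57. Spliced reads of intron 8 rose by 0.18 (adjusted p = 0.0123, edgeR), less than the median of 0.43 over the 9 introns of the gene. Introns 4 and 5, whose ratio did not pass, had smaller changes of 0.11 and 0.13 (adjusted p = 0.132 and 0.101, edgeR). A small spliced change was thus not particular to intron 8. Transcripts that keep this intron are annotated, among them EIF4A1-202 and EIF4A1-227. An overlapping transcript of AC016876.2 on the same strand spans it, so reads of the latter cannot be told apart from those of EIF4A1. The same AC016876.2 transcript also spans intron 10, which had 6 and 7 intronic reads under H3B-8800 and 2 and 7 under DMSO. Its share of the reads in either intron was not tested.

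EIF4A2 has the same exon structure. In the transcripts compared, the 10 introns of both genes fall in the same codon phase, and introns 2 to 10 of EIF4A2 each lie 3 coding bases further along than those of EIF4A1. Intron 8 follows 906 coding bases in EIF4A1 and 909 in EIF4A2, and the exon after it begins catgg in both sequences above. In EIF4A2, intron 8 (chr3:186787265-186787494, 230 bases) also had the highest ratio change of the 6 introns tested, at 122 and 153 intronic reads under H3B-8800 and 21 and 25 under DMSO. Per 100 spliced reads it had 68.5 and 60.7 against 10.5 and 13.4, a log2 change of the ratio of 2.43 (SE 0.35, 5.38-fold, adjusted p = 1.34e-04, edgeR). The paired introns share place but not length or flanking intron sequence, and whether their changes differ from each other was not tested.

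**Figure D4:**
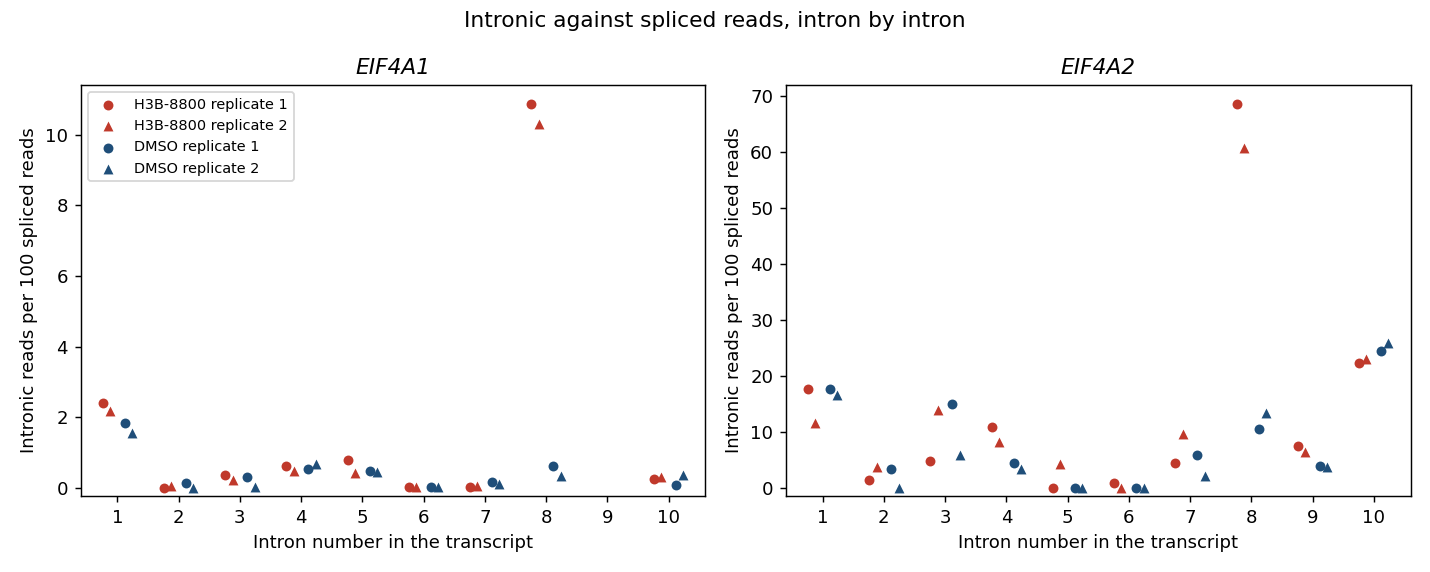
Intronic reads per 100 spliced reads at each listed intron of EIF4A1 (left) and EIF4A2 (right), 1 point per library, on linear axes of different range. Intron 8 stands out under H3B-8800 in both genes, at 10.9 and 10.3 in EIF4A1 and 68.5 and 60.7 in EIF4A2, and intron 9 of EIF4A1 is not listed.

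Several EIF4A2 introns hold genes of small nucleolar RNAs, which guide modification of other RNAs and are cut from the intron. Intron 8 holds SNORA63, intron 3 SNORD2, intron 6 one labelled RF00092, intron 7 SNORA81 and intron 9 SNORA4. Intron 7 also holds the microRNA gene MIR1248. Intron 6 had 2 and 0 intronic reads under H3B-8800 and 0 and 0 under DMSO. The tables do not say where in the intron a read lies, so reads of SNORA63 and of the intron around it cannot be told apart. Intron 9 had 38 and 38 intronic reads against 17 and 17, which passed as higher (log2 change 1.25, adjusted p = 0.0187, edgeR), while its ratio change of 0.83 did not pass (adjusted p = 0.0663, edgeR). Introns 3 and 7 had changes of -0.14 and 0.82, with adjusted p of 0.841 and 0.207 (edgeR). In EIF4A1, introns 3 and 5 hold SNORA48 and SNORD10. Intron 5 had 15 and 9 intronic reads against 10 and 10 (adjusted p of the ratio = 0.487, edgeR).

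Intron 4 of EIF4A2 rose too, at 41 and 32 intronic reads against 20 and 16, with a log2 change of the ratio of 1.28 (SE 0.38, adjusted p = 0.0125, edgeR). That call was lost with DESeq2 (adjusted p = 0.0545) and without H3B-8800 replicate 1 or DMSO replicate 2 (edgeR adjusted p = 0.104 and 0.0622). Its spliced reads did not rise with the rest of the gene, with a log2 change of 0.01 where 8 of the 10 introns passed as higher. Intron 10, the last, held the most intronic reads of the gene in both groups, 358 and 422 against 375 and 422. The log2 change of its ratio was -0.15 (adjusted p = 0.579, edgeR). It contains a 107-base exon of EIF4A2-202, a transcript annotated as a target of nonsense-mediated decay (chr3:186788310-186788416). The intronic reads of the gene outside intron 10 were 241 and 322 under H3B-8800 and 117 and 88 under DMSO.

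In EIF4B the intronic reads sat in intron 6 (chr12:53022628-53027781, 5154 bases), which had 604 and 644 under H3B-8800 and 75 and 64 under DMSO. The log2 change of its ratio was 2.26 (SE 0.28, 4.79-fold, adjusted p = 4.59e-05, edgeR). Spliced reads across the same intron rose as well, from 169 and 161 to 296 and 323, at a log2 change of 1.18. The intron contains a 119-base exon of EIF4B-210, annotated as a target of nonsense-mediated decay (chr12:53025227-53025345). Whether the reads lie in that exon or are spread over the intron was not tested, since the tables give 1 count per intron.

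Intron 1 of EIF4B (chr12:53006497-53016472, 9976 bases) went against the rest of its gene. It was crossed by 13 and 13 spliced reads under H3B-8800 and by 80 and 83 under DMSO, a log2 change of -2.37 (SE 0.29, adjusted p = 1.31e-06, edgeR). The other 12 listed introns all rose, by 0.73 to 1.18. Its intronic reads were 46 and 24 against 10 and 0, and the log2 change of the ratio was 5.44 (SE 0.89, adjusted p = 3.28e-04, edgeR). The DMSO libraries alone did not reach the minimum mean of 10 intronic reads, so the intron was tested through the group where it is high. Without 1 library the fitted ratio change ranged from 4.36 to 10.70, so its size rests on few reads. Next to it, intron 2 had 540 and 532 spliced reads against 403 and 375, so intron 1 was crossed by fewer reads than intron 2 in the controls too. Transcripts of AC068888.1 on the opposite strand and AC068888.2 on the same strand overlap intron 1. Exons of the EIF4B transcripts EIF4B-207 and EIF4B-212 overlap it too, and reads of all these were not separated.

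**Figure D5:**
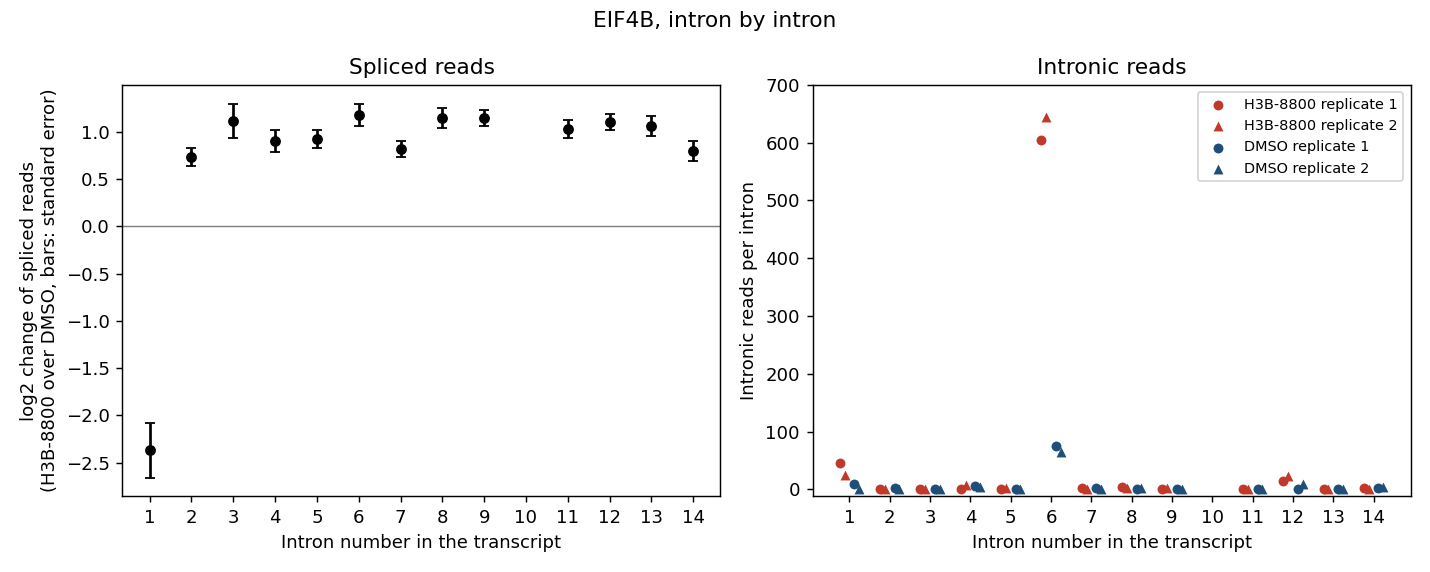
EIF4B intron by intron. Left, log2 change of spliced reads (H3B-8800 over DMSO) with standard errors, where intron 1 lies at -2.37 and the other 12 between 0.73 and 1.18; right, intronic reads per library on a linear axis, where intron 6 has 604 and 644 under H3B-8800 against 75 and 64 under DMSO. Intron 10 is not listed.

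EIF4G1 held 2 introns that moved in opposite directions. Intron 14 (chr3:184324348-184324877, 530 bases, with no annotated exon inside) had 30 and 41 intronic reads under H3B-8800 and 0 and 0 under DMSO. Against a floor of 3 reads over the DMSO group, intronic reads were at least 25.2-fold higher, a bound that would be lower if both mates of a pair were counted. The adjusted p was 1.51e-04 for the intronic reads and 2.89e-05 for the ratio (edgeR). The last intron, 29 (chr3:184332087-184334726, 2640 bases), had 51 and 79 against 106 and 184, a log2 change of intronic reads of -1.07 (adjusted p = 0.0104, edgeR). That call was lost without H3B-8800 replicate 1 or 2 or DMSO replicate 2 (adjusted p = 0.362, 0.237 and 0.0714, edgeR). Its spliced reads fell as well, from 359 and 333 to 217 and 239 (log2 change -0.33, adjusted p = 0.0195, edgeR), and its ratio did not pass (-0.54, adjusted p = 0.223, edgeR) except without DMSO replicate 1 (adjusted p = 0.0387). Of the 24 introns of EIF4G1, 12 had no intronic read in any library.

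In EIF4G2, intron 17 (chr11:10799757-10800089, 333 bases) held 49 and 36 intronic reads under H3B-8800 and 10 and 6 under DMSO. The log2 change of the ratio was 2.38 (SE 0.41, 5.21-fold, adjusted p = 4.47e-04, edgeR). Here too the DMSO libraries alone were below the minimum mean of 10 intronic reads. Its neighbour, intron 18, had 2 intronic reads under H3B-8800 and 0 under DMSO over 2624, 2710, 2485 and 2211 spliced reads. Intron 3 had 32 intronic reads against 5, summed over each group, and was below the minimum for a test.

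The other tested introns did not pass the ratio test. In EIF4A1, introns 1 and 4 had log2 changes of the ratio of 0.43 and -0.11 (adjusted p = 0.41 and 0.804, edgeR), and intron 12 of EIF4B had 1.07 (adjusted p = 0.17, edgeR). Intron 10 of EIF4G3, with no annotated exon inside, had 42 and 44 intronic reads under H3B-8800 and 76 and 64 under DMSO (log2 change of the ratio -1.03, adjusted p = 0.0605, edgeR). Intron 1 of EIF4EBP2, 15367 bases long, had 24 and 26 against 37 and 25 (-0.89, adjusted p = 0.0726, edgeR). Intron 2 of EIF4E had 9 and 11 against 24 and 10, and passed as lower without DMSO replicate 2 only (adjusted p = 0.0278, edgeR). Per 100 spliced reads the treated libraries were below the controls in these introns of EIF4G3, EIF4EBP2 and EIF4E, at 2.43 and 2.93 against 7.72 and 3.11 in EIF4E. Intron 1 of EIF4EBP1 had 5 and 15 intronic reads against 16 and 7, and its groups overlapped.

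Of 36 further genes of cap-dependent initiation and its control, 34 were in the tables and tested. In spliced reads 16 rose and 13 fell, with a median log2 change of 0.03, beside 32.8% and 32.7% of all genes tested and their median of 0.01. In the arm that controls 4E-BP, RHEB, the small GTPase that activates mTOR, rose by 0.77 (adjusted p = 2.76e-09, edgeR). MTOR itself fell from 106 and 108 CPM to 39.2 and 39.2 CPM, a log2 change of -1.45 (adjusted p = 3.67e-09, edgeR). RPTOR, its scaffold, had a change of -0.93, and RPS6KB2, a kinase downstream of it, -1.08, both passing as lower (adjusted p = 3.87e-07 and 9.85e-09, edgeR). RPS6KB1, the related kinase, went the other way, from 76.5 and 78.0 CPM to 157 and 152 CPM (log2 change 1.00, adjusted p = 2.07e-08, edgeR). The scanning factor EIF1 rose by 0.82, PAIP1, which bridges the polyA-binding protein and eIF4A, by 0.75, and PABPC4, a polyA-binding protein, fell by 0.60 on the log2 scale (adjusted p = 6.61e-09, 1.23e-08 and 1.18e-07, edgeR).

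Among the direct relatives, EIF4A3, the helicase of the exon junction complex, rose by 0.77 (adjusted p = 1.19e-08, edgeR). EIF4E2, a cap-binding protein linked to translational repression, rose by 0.29 (adjusted p = 2.39e-04, edgeR). EIF4E3 had 3.94 and 3.63 CPM under H3B-8800 and 7.10 and 5.29 CPM under DMSO and fell by 0.71 on the log2 scale (adjusted p = 0.0263, edgeR). The ratio of intronic to spliced reads rose in 22 of the 31 of these further genes that could be tested and fell in 0, with a median log2 change of 1.58. Over all genes tested, 65.4% rose and the median was 1.35, and of the eIF4 factors 3 of 9 rose, with a median of 0.10.

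The genes whose spliced reads followed EIF4B most closely over the 4 libraries were PAK2, WDR45B and SRSF5, at Euclidean distances of 0.0578, 0.0745 and 0.0788 between centred log2 CPM values, among 711 genes of like level. Their log2 changes were 0.93, 1.00 and 1.00, beside 0.96 for EIF4B. With 2 groups of 2 libraries, this likeness mostly restates the size of the change.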

How the data were processed

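Each deposited table listed 142224 introns, 1 transcript per gene, with no header, 2 read counts and 1 RPKM. The submitters' processing notes name HISAT2 2.0.4 and builds hg38 and mm10. The counting step of the authors, and its use of strand, are not stated in the labels. The first deposited count was taken as intronic, and the second minus the first as spliced, which is inferred from the values. The deposited RPKM gave the library totals. The 18 introns without a second count were left out. Of the listed introns, 99.87% matched GENCODE release 29 on GRCh38; coordinates are 1-based. An intron has an exon inside where an annotated exon of any transcript overlaps it, which includes transcripts that retain it.

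Counts were tested with edgeR 4.0.16 (limma 3.58.1, R 4.3.3), adjusted over all features tested. Spliced reads per gene needed a mean of 1 CPM and used TMM; intronic reads and ratios needed a mean of 10 reads of each kind. The ratio test is the interaction of treatment and kind of read in 1 model with a term per library, and its SE was approximated from the F statistic. Alternatives were DESeq2 1.42.0, other scalings and minimums, a replicate block, other sets of summed introns and leaving out each library. The tests were also run on simulated counts in which 200 features were changed in random directions. That setting lacked the general rise of intronic reads seen here, so it cannot show how the tests behave under such a rise. Between 70.9% and 72.3% of non-zero intronic counts were even, so mates of a pair were probably both counted, and intervals and floors cover counting error only. P-values measure the spread between 2 duplicates per group of 1 cell line. Sequences of the introns were read from GENCODE transcripts that retain them, which gave 28 of the 91.

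The members, the list of 36 further genes and the rules were chosen with earlier results of these data known. All members are named. Introns are named for the smallest adjusted p of the ratio in each direction, the most intronic reads per kb, or the largest or smallest spliced change in a gene; further genes for the 4 smallest adjusted p in each direction, with EIF4E2, EIF4E3 and EIF4A3 in any case. EIF4B intron 1 and EIF4A2 intron 4 for their ratio, the snoRNA-holding introns, EIF4G2 introns 3 and 18, EIF4A1 introns 1 and 6, EIF4B introns 2 and 12 and RPS6KB1 were chosen after their values were seen.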

Additional observations from a re-analysis of the deposited data

How the results depend on the processing

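Replicate numbers were shared between the groups, and deviations of same-numbered libraries correlated at 0.05 over 9468 genes. With 2 libraries per group, this shows no strong shared effect but cannot tell whether the libraries were prepared as pairs. With the replicate block, spliced reads were higher in 7 and lower in 1 of the 10 genes, intronic reads in 4 and 0 of 9, and the ratio in 3 and 0 of 9; over introns the counts were 49 and 8, 7 and 1, and 7 and 0. Of 675 comparisons of 76 single results with an alternative, 561 kept direction and side of the threshold, 65 lost the call, 15 gained one and 34 changed sign. None of the changes of sign concerned EIF4B, the gene-level values of EIF4A1 and EIF4G2, or the ratio of an intron that had passed. The cause of these shifts was not tested.

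Library totals in place of TMM took spliced reads of EIF4G3 to -0.047 and of EIF4EBP1 to -0.053, gave 22 lower introns, and turned EIF4A1 intron 4 to -0.070, EIF4A2 intron 4 to -0.17, EIF4G2 intron 5 to -0.085, EIF4H intron 2 to -0.17 and EIF4EBP1 intron 2 to -0.13, none past the threshold. TMM of the intronic reads gave 4 lower genes (EIF4A2 at -0.51, EIF4G1, EIF4G3 and EIF4EBP2) and 5 higher and 5 lower introns, with EIF4A2 intron 10 at -0.98. TMM factors of the spliced reads took intronic reads of EIF4E to 0.044, of EIF4EBP1 to 0.12 and of EIF4EBP1 intron 1 to 0.052. DESeq2 called 3 introns lower in spliced and 5 higher in intronic reads and gave EIF4EBP1 a ratio change of -0.025. With a mean of at least 20 reads, which leaves fewer features to test, 1 gene (EIF4EBP2) and 2 introns (EIF4G3 intron 10 and EIF4EBP2 intron 1) passed as lower in the ratio. Introns without an annotated exon inside left 3 members to test in the ratio, of which 1, EIF4G1, was higher; EIF4A1, EIF4B and EIF4G2 could not be tested, and intron 14 held most of the intronic reads this left in EIF4G1.

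Leaving out each library in turn, counts of intronic calls ranged from 0 to 4 genes higher and 0 to 1 lower, and from 0 to 10 introns higher and 0 to 1 lower. Spliced calls per intron ranged from 0 to 44 higher and 0 to 5 lower, and lower ratio calls from 0 to 1 for genes and for introns. A lone library in a group was assumed to vary like the other group. Log2 changes crossed 0 in intronic reads of EIF4EBP1 (-0.52 to 0.52), EIF4E (-0.63 to 0.63), EIF4EBP2 (-0.47 to 0.092) and EIF4G1 (-0.52 to 0.019), and in the ratio of EIF4G1 (-0.15 to 0.39), EIF4E (-0.95 to 0.26) and EIF4EBP1 (-0.48 to 0.54). Among introns they did so in spliced reads of EIF4A2 intron 4 (-0.037 to 0.053) and EIF4H intron 2 (-0.059 to 0.075). In intronic reads they did so for EIF4EBP1 intron 1 (-0.59 to 0.43), EIF4A2 intron 10 (-0.022 to 0.15), EIF4E intron 2 (-1.16 to 0.090) and EIF4EBP2 intron 1 (-0.47 to 0.092), and in the ratio for EIF4EBP1 intron 1 (-0.65 to 0.33) and EIF4A1 intron 4 (-0.29 to 0.056). Depth limits the intron tests: 64 of the 91 introns had under 10 intronic reads in every library.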
